A study of Mus musculus with 8 samples.

Results

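The genes of mitosis were examined in cisplatin-treated TCMK-1 cells, a mouse kidney tubular epithelial line, with and without knockdown of smgGDS, the guanine nucleotide exchange protein encoded by Rap1gds1. The set holds 49 of the 21879 genes in the deposited table and was chosen by gene symbol, as the kinases, cyclins, kinetochore, checkpoint, condensin, spindle, anaphase and cytokinesis proteins that carry a cell through division. Each symbol matched 1 row. The tested libraries came from cells with an shRNA against smgGDS, and were set against libraries from cells with a control shRNA, with 4 libraries in each group. The sample labels give 20 µM cisplatin, a DNA-crosslinking drug, for both groups, and these were followed. The protocol shared by all samples also speaks of a control group given saline; if that meant the control shRNA libraries, the knockdown and the drug could not be told apart in any value below. The labels do not say whether the 4 libraries of a group were separate cultures or clones, and p-values measure only the spread between them, which may be technical.

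Mitosis starts when CDK1 bound to cyclin B phosphorylates many proteins, and it ends when the anaphase-promoting complex (APC/C, a ubiquitin ligase) marks cyclin B and securin for destruction. In between, condensin compacts the chromosomes, kinetochores attach them to spindle microtubules, and the spindle checkpoint holds the APC/C back until every chromosome is attached. Most of these genes are transcribed in G2 and mitosis, through the MuvB complex with B-Myb and FOXM1, often from promoters with CCAAT boxes, bound by NF-Y, and a cell cycle homology region. In bulk RNA, fewer dividing cells and less RNA per dividing cell cannot be told apart.

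Rap1gds1 was at 2.71, 2.36, 2.64 and 2.80 CPM (normalised counts scaled to library size with TMM factors) in the knockdown libraries, against 17.0, 15.6, 16.8 and 15.5 CPM in the control libraries, so that every library matched its label. Total expected counts per library were 12746051 to 14280962 in the knockdown and 11560977 to 16059158 in the control. Knockdown replicate 4 stood apart, at 20.9 on the component that carried 29.2% of the variance, where the other knockdown libraries lay between 8.86 and 9.58 and the controls between -16.5 and -8.86. Of 12 kidney epithelial markers, 7 had enough counts to be tested, and 1 was called lower and 0 higher. The water channel Aqp1 was at 127 ± 3.63 CPM in the knockdown and 155 ± 6.07 CPM in the control (SD, n = 4 each), and the tubule regulator Hnf4a had no count in any library. The other tested markers were not called, with log2 fold changes of -0.68 for Krt18, -0.45 for Krt8, -0.03 for Krt19, 0.05 for Pax8, 0.30 for Epcam and 0.39 for Lrp2. The summed level of 6 fibroblast and pericyte markers was 327 to 378 CPM in the knockdown and 280 to 305 CPM in the control, almost all of it Col1a1, and all 3 tested members were called higher. The leukocyte list summed to 111 to 122 CPM in the knockdown and 130 to 139 CPM in the control, from Cd14 and Cd68, with its defining gene Ptprc at or near 0. The endothelial list summed to 11.9 to 13.8 CPM in the knockdown and 7.61 to 9.58 CPM in the control, almost all of it Flt1, with Pecam1 and Cdh5 near 0. The part of these markers in the results below was not tested.

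Transcripts of the 49 genes were mostly lower in the knockdown, by small amounts. All 49 genes had enough counts to be tested, and 27 fell while 1, the cytokinesis scaffold Anln, rose (edgeR quasi-likelihood test, Benjamini-Hochberg adjusted p below 0.05 over 11576 genes). Of all tested genes, 9.15% were called lower and 11.1% were called higher. The falls left between 75.3% and 91.6% of the control level, with a median of 84.1%. Log2 fold changes are knockdown minus control, and their median was -0.17 over the 49 genes and -0.0033 over all tested genes. In 21 of the 27 genes that fell, all 4 knockdown libraries lay below all 4 control libraries, an arrangement found in 9.61% of all tested genes; the opposite one was found in 0 of the 49 and in 11.5% of all tested genes. The 21 genes that were not called ranged from -0.30 for Spc25 to 0.07 for Ect2, and a p above the threshold does not show that they were equal between groups.

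**Figure D1:**
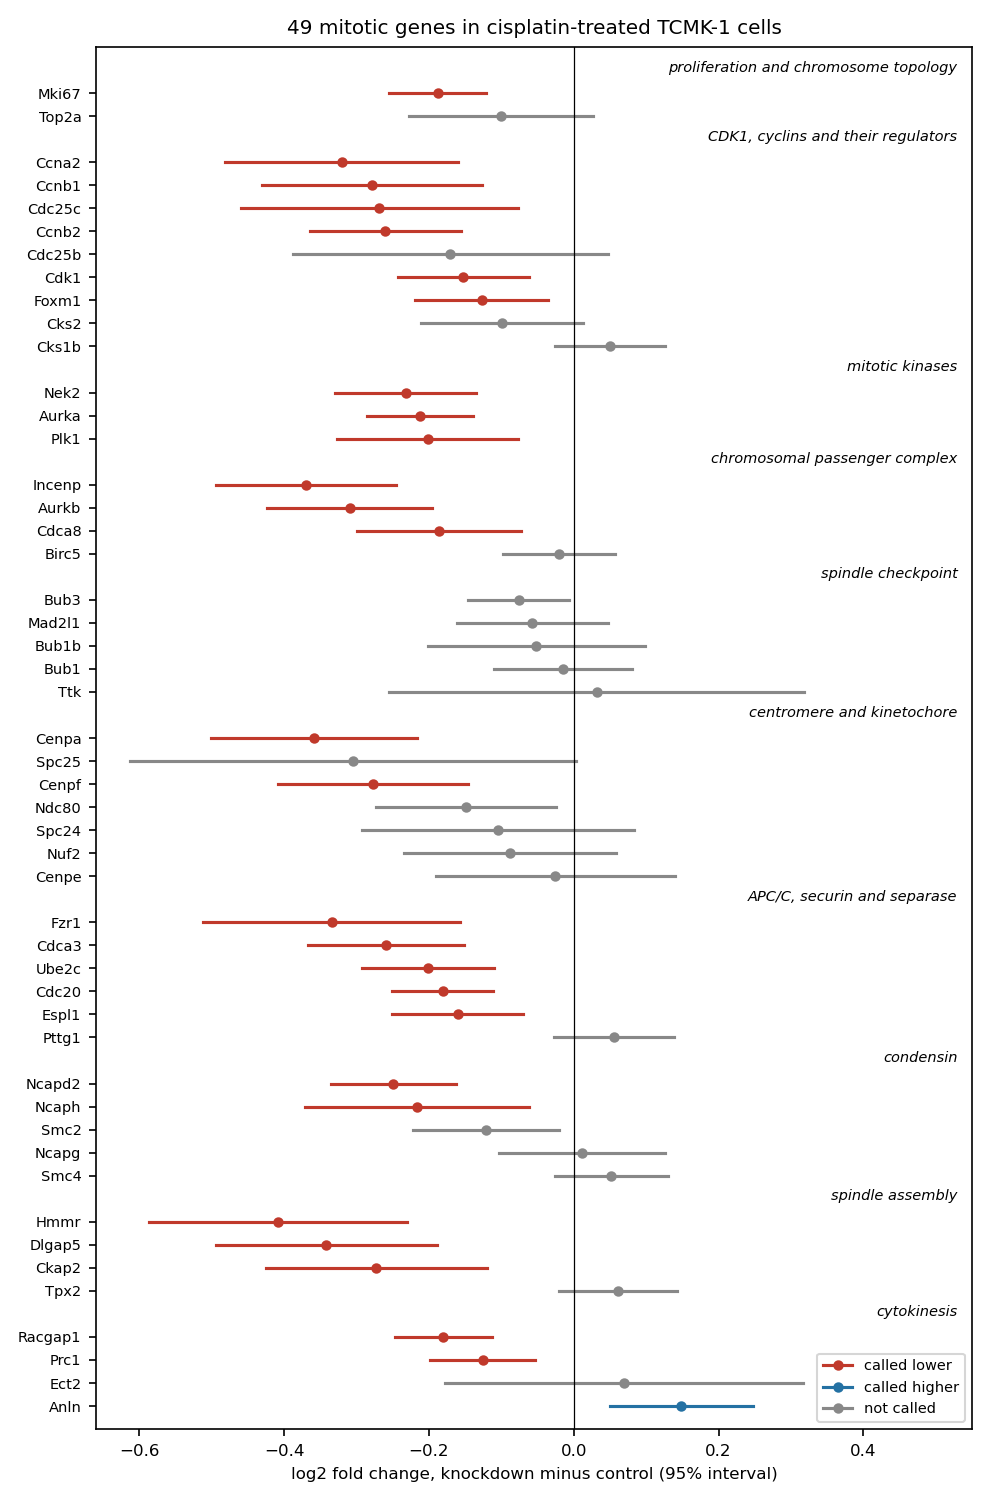
Log2 fold change of each of the 49 genes (x axis, knockdown minus control) with its 95% interval, grouped by class down the page. Red marks the 27 genes called lower, blue the 1 called higher and grey the 21 not called. Most points lie left of 0, and the 5 spindle checkpoint genes are all grey.

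The shift was present in every knockdown library and deepest in replicate 4. Relative to the control mean on a log2(CPM + 0.5) scale, the median of the 49 genes was -0.14, -0.14, -0.15 and -0.25 in knockdown replicates 1 to 4, and 0.00092, 0.04, 0.02 and -0.04 in control replicates 1 to 4. Replicate 4 was the lowest knockdown library for 29 of the 49 genes and for 18 of the 27 that fell. Without it, 22 fell and none rose, with a median of -0.14, where 6.87% of all tested genes were called lower and 8.85% higher. In that fit Anln was at 0.13. On all libraries limma voom and DESeq2 each called 1 gene higher. With all libraries 31 of the 49 genes had an unadjusted p under 0.05 in edgeR. The share of all tested genes under that cutoff was not taken, so this count has no background beside it. With counts scaled by library totals alone, 31 fell and none rose, and 16.9% of all tested genes were called lower and 6.62% higher, the median of all tested genes being -0.06.

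**Figure D2:**
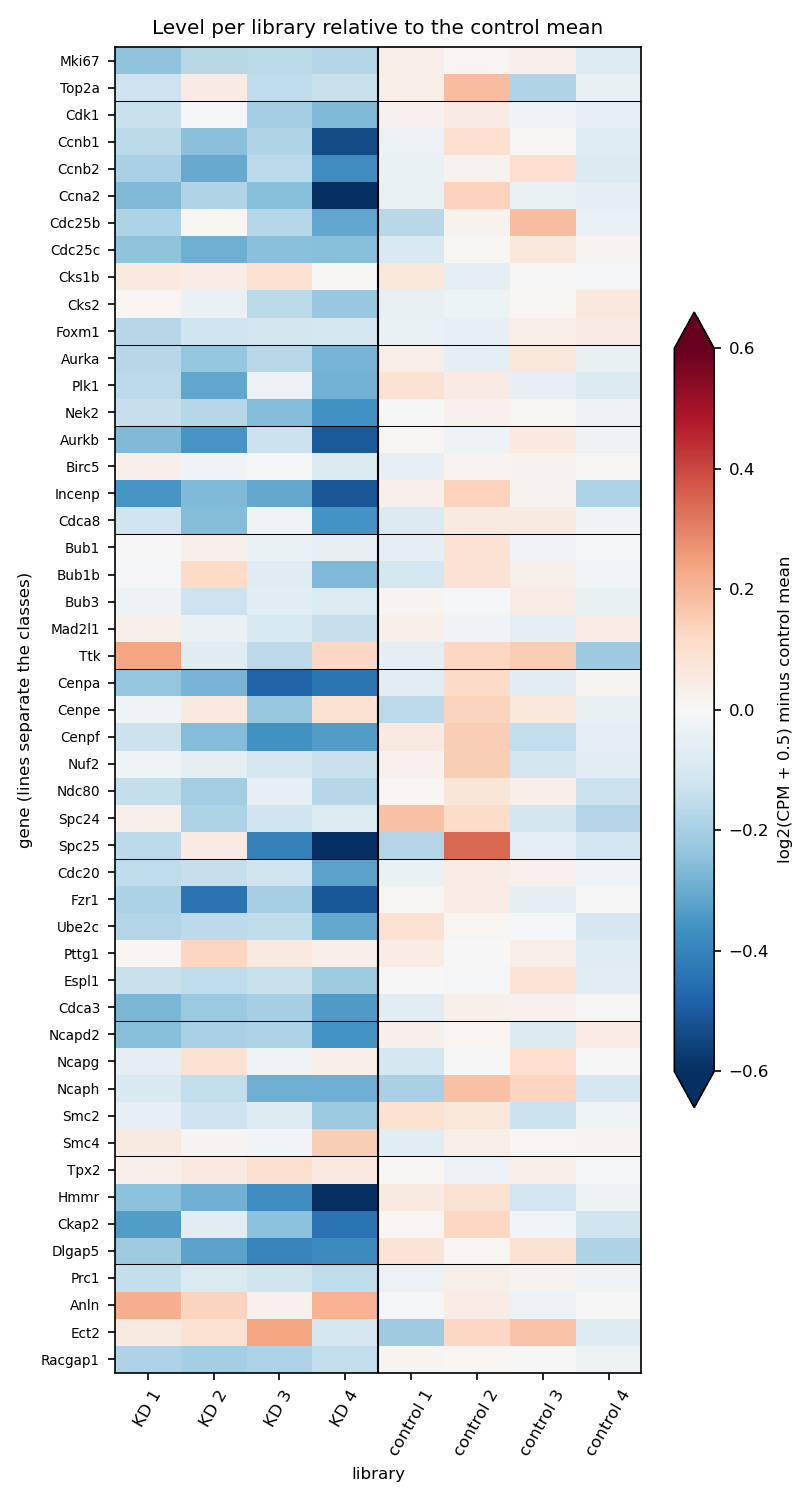
Level of each gene (rows, grouped by class) in each library (columns, 4 knockdown then 4 control) as log2(CPM + 0.5) minus the mean of the control libraries; colours saturate at 0.6 in either direction. The knockdown columns are blue for most genes, and the fourth is darkest, with a median of -0.25.

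Among CDK1, its cyclins and their regulators, 6 of 9 fell and none rose. The mitotic cyclins fell together. Cyclin A2 (Ccna2), which drives S phase exit and mitotic entry, was at 70.8, 75.2, 71.3 and 56.0 CPM in the knockdown, against 82.8, 93.8, 82.7 and 81.7 CPM in the control. Every knockdown library was below every control library, with knockdown replicate 4 lowest (-0.32 on the log2 scale with SE 0.08 and edgeR adjusted p = 0.0067; -0.24 without knockdown replicate 4). Ccna2 overlaps Exosc9 in the annotation, and with no strand setting given, reads from the shared stretch may not be told apart. Cyclin B1 (Ccnb1) was at 107, 101, 106 and 82.5 CPM in the knockdown, against 117, 129, 120 and 114 CPM in the control. It changed by -0.28 on the log2 scale (SE 0.07, edgeR adjusted p = 0.0128), and by -0.20 without knockdown replicate 4. Its paralogue cyclin B2 (Ccnb2) fell to a similar degree, to 64.8 ± 4.35 CPM, against 77.6 ± 4.36 CPM in the control (SD, n = 4 each, -0.26 on the log2 scale with SE 0.05 and edgeR adjusted p = 0.000202). The kinase Cdk1 itself had a smaller estimated fall than these cyclins, a difference that was not tested. Cdk1 was at 110, 120, 105 and 101 CPM in the knockdown, against 123, 125, 118 and 117 CPM in the control. One knockdown library exceeded the lowest controls, and the estimate of -0.15 (SE 0.04, edgeR adjusted p = 0.0119) was not called without knockdown replicate 4 (-0.12, adjusted p = 0.0594).

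The phosphatase Cdc25c, which removes the inhibitory phosphates from CDK1, was at a log2 fold change of -0.27 (SE 0.09), and Foxm1, the transcription factor that drives G2/M genes, at -0.13 (SE 0.05). Both fell but were near the threshold, with edgeR adjusted p of 0.0382 and 0.0393. Cdc25c was called in 1 of the 8 fits that left out a library (without control replicate 1) and not with DESeq2, and Foxm1, which overlaps Tex52, was called in 3 (without knockdown replicate 4, control replicate 1 or control replicate 2) and not with transcript length and GC offsets. The related phosphatase Cdc25b was low, at 9.75 to 12.3 CPM in the knockdown and 10.8 to 14.0 CPM in the control, and was not called (-0.17, 95% interval -0.39 to 0.05). The small CDK-binding subunits differed from the cyclins in their estimates. Cks1b was at 148, 147, 151 and 143 CPM in the knockdown, against 148, 137, 142 and 141 CPM in the control, and Cks2 was at 52.8 ± 4.03 CPM in the knockdown and 56.7 ± 1.89 CPM in the control (SD, n = 4 each). Neither was called (Cks1b 0.05, interval -0.03 to 0.13; Cks2 -0.10, interval -0.21 to 0.01), and with library totals alone Cks1b was at -0.0058 and Cks2 passed at -0.16. The difference between the paralogues was not tested.

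Among the mitotic kinases outside the checkpoint and passenger classes, 3 of 3 fell. Aurora A (Aurka), which matures centrosomes and activates PLK1, was at 179, 171, 179 and 166 CPM in the knockdown, against 206, 194, 210 and 195 CPM in the control. The groups did not overlap, and the difference of -0.21 (SE 0.04, edgeR adjusted p = 2.5e-05) kept its call under every alternative tried. Aurka overlaps Cstf1 in the annotation. The centrosome kinase Nek2 was at 77.1, 75.2, 70.7 and 65.8 CPM in the knockdown, against 84.8, 86.2, 85.4 and 82.7 CPM in the control (-0.23, SE 0.05, edgeR adjusted p = 0.000377). Plk1, which acts from centrosome maturation to cytokinesis, was at 42.5, 38.3, 46.5 and 39.1 CPM in the knockdown, against 50.7, 49.3, 46.1 and 44.8 CPM in the control. Its groups overlapped, and its call (-0.20, SE 0.06, edgeR adjusted p = 0.0162) was lost without knockdown replicate 2 (-0.16), knockdown replicate 4 (-0.17) or control replicate 1 (-0.17), and with transcript length and GC offsets (-0.16).

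The chromosomal passenger complex corrects faulty attachments and later directs cytokinesis, and 3 of its 4 genes fell. Its scaffold Incenp had one of the deepest falls of the set, at 46.7, 49.7, 48.1 and 41.7 CPM in the knockdown, against 61.0, 65.8, 60.6 and 52.4 CPM in the control. The lowest control still lay above the highest knockdown library (-0.37 on the log2 scale with SE 0.06 and edgeR adjusted p = 2.15e-05). Its kinase Aurkb was at 62.5, 58.8, 68.8 and 53.0 CPM in the knockdown, against 75.7, 73.6, 78.3 and 73.6 CPM in the control (-0.31, SE 0.06, edgeR adjusted p = 7.85e-05), beside the -0.21 of its paralogue Aurka; the difference was not tested. Cdca8, encoding borealin, fell by 0.19 on the log2 scale (SE 0.06, edgeR adjusted p = 0.0145) with overlapping groups, and was not called without knockdown replicate 2, knockdown replicate 4 or control replicate 3, where it lay between -0.17 and -0.13. The fourth gene, Birc5 (survivin), was at 140, 135, 136 and 128 CPM in the knockdown, against 132, 138, 139 and 138 CPM in the control. Its estimate was -0.02 (95% interval -0.10 to 0.06, edgeR adjusted p = 0.758).

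None of the 5 spindle checkpoint genes was called in either direction by edgeR, DESeq2 or limma voom, with 1 of them, Bub3, at an unadjusted p under 0.05. Bub1, a kinase that docks the checkpoint at kinetochores, was at 74.8, 76.2, 72.7 and 72.1 CPM in the knockdown, against 71.6, 79.3, 73.5 and 74.3 CPM in the control (-0.01, 95% interval -0.11 to 0.08). The groups lay on top of each other. Bub3, the partner of Bub1 and Bub1b, was at 196, 183, 191 and 189 CPM in the knockdown, against 202, 198, 206 and 194 CPM in the control. Its estimate of -0.08 (edgeR adjusted p = 0.116) passed at -0.13 when library totals alone or FPKM set the scale. Mad2l1, which inhibits CDC20, was at -0.06 (interval -0.16 to 0.05), Bub1b, encoding BUBR1, at -0.05 (interval -0.20 to 0.10) and the kinase Ttk at 0.03 (interval -0.25 to 0.32). Ttk was among the lowest genes of the set, at 6.23 ± 0.84 CPM in the knockdown and 6.08 ± 0.77 CPM in the control (SD, n = 4 each). Further checkpoint genes sat in the other lists described below. Of these, Kntc1 was called higher (0.32, SE 0.06, edgeR adjusted p = 5.84e-05) and Spdl1 lower (-0.22, SE 0.08, edgeR adjusted p = 0.0322). Zw10 (-0.09), Zwilch (0.08) and Mad1l1 (0.04) were not called.

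Of 7 centromere and kinetochore genes, 2 fell and none rose. Cenpa, the histone H3 variant that marks centromeres, was at 29.8, 28.8, 25.0 and 25.7 CPM in the knockdown, against 33.5, 37.9, 33.5 and 35.4 CPM in the control. The groups were separate (-0.36 on the log2 scale with SE 0.07 and edgeR adjusted p = 0.000169). Cenpf, a large outer kinetochore and nuclear matrix protein, was at 42.5, 38.7, 36.0 and 36.8 CPM in the knockdown, against 48.3, 51.6, 41.9 and 44.7 CPM in the control (-0.28, SE 0.06, edgeR adjusted p = 0.00146). Its counts were not all whole, which leaves its value less certain. The 4 subunits of the NDC80 complex, which binds microtubules, had estimates below 0 without a call: Ndc80 at -0.15 (interval -0.27 to -0.02), Nuf2 at -0.09 (interval -0.23 to 0.06), Spc24, with counts not all whole, at -0.10 (interval -0.29 to 0.08) and Spc25 at -0.30 (interval -0.61 to 0.0037). Spc25 varied widely between libraries, at 13.2, 15.3, 11.1 and 8.95 CPM in the knockdown, against 13.0, 18.9, 14.2 and 13.6 CPM in the control, and was called without knockdown replicate 2 (-0.43). The kinesin-like motor Cenpe was at -0.03 (interval -0.19 to 0.14).

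**Figure D3:**
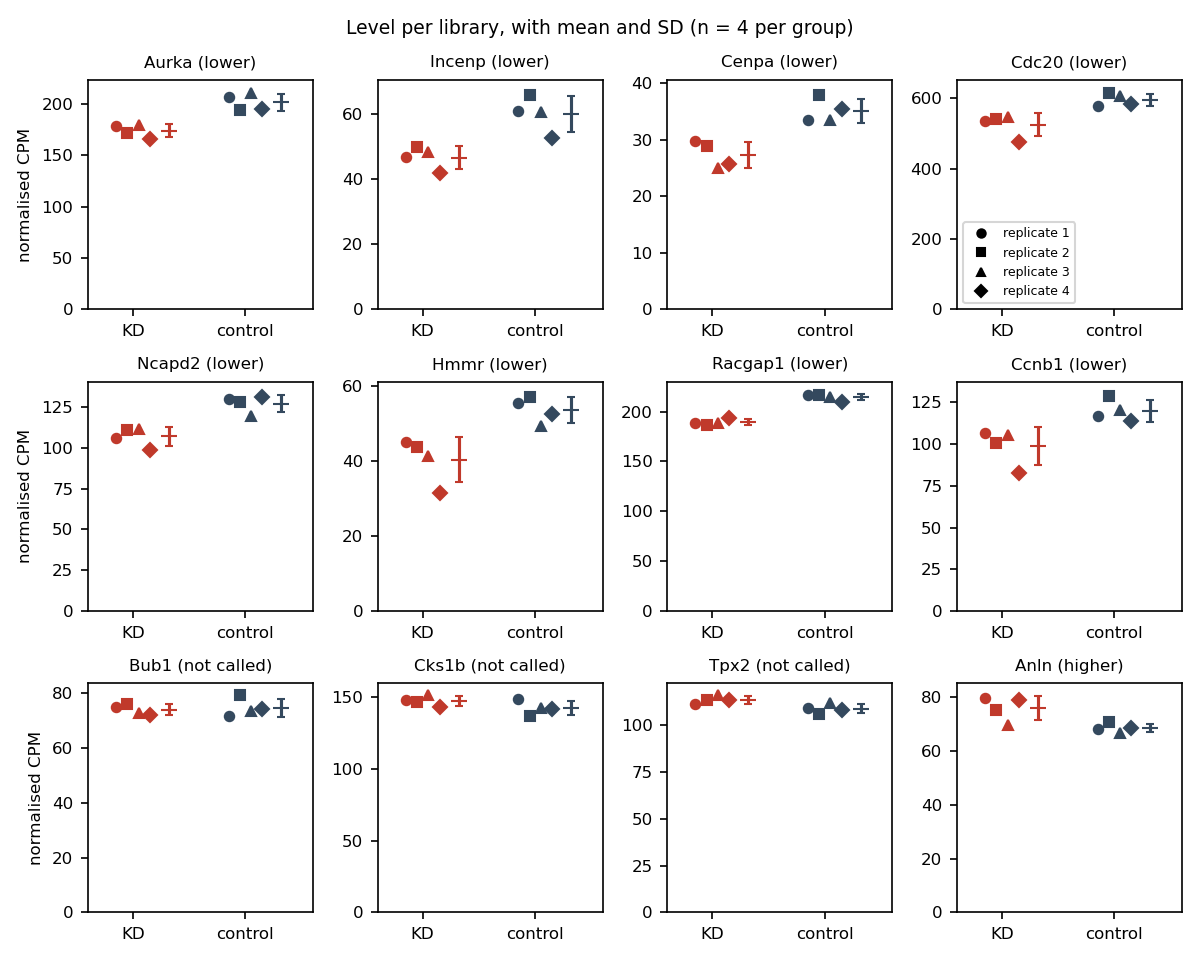
Normalised CPM per library (y axis from 0) for 12 genes, with knockdown libraries left of control libraries, one marker shape per replicate number, and the mean ± SD of the 4 libraries beside them. In the first 8 panels every knockdown library lies below every control library; Bub1, Cks1b and Tpx2 overlap, and Anln was called higher although its groups overlap.

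In the class of APC/C co-activators and partners, securin and separase, 5 of 6 genes fell and none rose. Cdc20, the co-activator that starts anaphase, had the highest level of the set and was at 537, 542, 548 and 477 CPM in the knockdown, against 579, 614, 606 and 584 CPM in the control. No knockdown library reached a control, and replicate 4 was well below the other knockdown libraries (-0.18 on the log2 scale with SE 0.03 and edgeR adjusted p = 0.00018; -0.14 without knockdown replicate 4). It overlaps Elovl1 in the annotation. Fzr1, encoding CDH1, the co-activator that takes over in late mitosis and G1, was at 18.1, 15.1, 17.9 and 14.4 CPM in the knockdown, against 20.7, 21.3, 19.9 and 20.7 CPM in the control (-0.33, SE 0.09, edgeR adjusted p = 0.00463). The ubiquitin-conjugating enzyme Ube2c, which starts ubiquitin chains on APC/C substrates, was at 97.0, 98.2, 98.4 and 88.5 CPM, against 117, 110, 109 and 102 CPM (-0.20, SE 0.05, edgeR adjusted p = 0.000917).

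Cdca3, an F-box-like protein that promotes mitotic entry, was at 48.3, 50.1, 50.9 and 46.1 CPM in the knockdown, against 55.8, 59.8, 59.5 and 58.9 CPM in the control. All 4 knockdown libraries were lower (-0.26, SE 0.05, edgeR adjusted p = 0.000308). The protease and its inhibitor had estimates of opposite sign. Espl1 (separase), which cuts cohesin at anaphase, fell by 0.16 on the log2 scale (SE 0.04, edgeR adjusted p = 0.00759), at 84.5 ± 2.19 CPM in the knockdown and 94.4 ± 4.03 CPM in the control (SD, n = 4 each). Pttg1 (securin), which holds separase inactive, was at 113, 123, 117 and 115 CPM in the knockdown, against 116, 112, 115 and 107 CPM in the control and was not called (0.06, interval -0.03 to 0.14); with library totals alone it was at -0.0001.

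Condensin subunits were split, with 2 of 5 lower and none higher. Ncapd2, a HEAT-repeat subunit of condensin I, was at 106, 111, 112 and 98.9 CPM in the knockdown, against 130, 128, 120 and 131 CPM in the control. The groups were apart (-0.25 on the log2 scale with SE 0.04 and edgeR adjusted p = 2.7e-05). Ncaph, the kleisin of condensin I, was at 32.3, 31.0, 28.0 and 28.0 CPM in the knockdown, against 30.0, 38.9, 37.7 and 31.9 CPM in the control. Its call (-0.22, SE 0.08, edgeR adjusted p = 0.0397) was lost without knockdown replicate 3 (-0.19), knockdown replicate 4 (-0.19), control replicate 2 (-0.15) or control replicate 3 (-0.17), with DESeq2, with limma voom, on FPKM and with transcript length and GC offsets. The third condensin I subunit, Ncapg, was at 49.7 ± 2.29 CPM in the knockdown and 49.4 ± 2.92 CPM in the control (SD, n = 4 each, 0.01, interval -0.10 to 0.13); its counts were not all whole and it overlaps Lcorl. The ATPase subunits shared by both condensins were not called, Smc2 at -0.12 (interval -0.22 to -0.02) and Smc4 at 0.05 (interval -0.03 to 0.13). With library totals alone Smc2 was called at -0.18, while Ncapg and Smc4 were at -0.04 and -0.0042; Smc2 was also called without control replicate 3 (-0.16) and with transcript length and GC offsets (-0.16). The other 3 subunits listed of condensin II were not called either by edgeR, DESeq2 or limma voom and none had an unadjusted p under 0.05, at -0.17 for Ncapd3, -0.05 for Ncapg2 and -0.04 for Ncaph2; with library totals alone 1 of these fell.

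The spindle assembly class held the deepest fall of the 49 genes, and 3 of its 4 genes fell. Hmmr, a microtubule-binding protein of spindle poles, was at 45.0, 43.8, 41.3 and 31.6 CPM in the knockdown, against 55.6, 57.1, 49.4 and 52.4 CPM in the control. Knockdown replicate 4 was far below the others, yet the remaining knockdown libraries also stayed under all controls (-0.41 on the log2 scale with SE 0.08 and edgeR adjusted p = 0.00188; -0.31 without knockdown replicate 4). Dlgap5, also known as HURP, which stabilises microtubules near chromosomes, was at 25.1, 23.3, 22.0 and 22.3 CPM, against 30.8, 29.5, 31.2 and 25.7 CPM (-0.34, SE 0.08, edgeR adjusted p = 0.000755). Some of its counts were not whole. Ckap2, a spindle-associated microtubule stabiliser, was at 83.2, 101, 88.5 and 77.2 CPM in the knockdown, against 106, 115, 104 and 96.8 CPM in the control, with 1 knockdown library above the lowest control (-0.27, SE 0.07, edgeR adjusted p = 0.0139; not called without knockdown replicate 3, at -0.28). Tpx2, the Aurora A activator, did not follow them. It was at 111, 113, 116 and 113 CPM in the knockdown, against 109, 106, 112 and 108 CPM in the control (0.06, interval -0.02 to 0.14, edgeR adjusted p = 0.309).

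The cytokinesis genes went both ways, with 2 lower and 1 higher of 4. Racgap1, a component of the central spindle, was at 189, 186, 189 and 194 CPM in the knockdown, against 217, 217, 215 and 210 CPM in the control, with little spread in either group (-0.18 on the log2 scale with SE 0.03 and edgeR adjusted p = 7e-05). Here knockdown replicate 4 was the highest of its group. Prc1, which bundles the antiparallel microtubules of the midzone, was at 147, 153, 150 and 146 CPM in the knockdown, against 159, 167, 165 and 160 CPM in the control (-0.13, SE 0.04, edgeR adjusted p = 0.00956); it overlaps Rccd1. Anln (anillin), which links actin and myosin at the cleavage furrow, was at 79.8, 75.2, 69.9 and 79.2 CPM in the knockdown, against 68.2, 70.6, 66.8 and 68.6 CPM in the control. One knockdown library lay among the controls. The estimate of 0.15 (SE 0.05, edgeR adjusted p = 0.0256) was not called without knockdown replicate 1 (0.12), knockdown replicate 4 (0.13), control replicate 1 (0.15) or control replicate 3 (0.14), nor with library totals alone (0.09) or on FPKM, and some of its counts were not whole. It overlaps 9530077C05Rik in the annotation. Ect2, an exchange factor needed for the furrow, was low, at 8.91 ± 0.90 CPM in the knockdown and 8.49 ± 1.10 CPM in the control (0.07, interval -0.18 to 0.32).

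The proliferation marker Mki67, which coats mitotic chromosomes, was at 231, 243, 244 and 241 CPM in the knockdown, against 281, 274, 279 and 257 CPM in the control. The groups did not overlap (-0.19 on the log2 scale with SE 0.03 and edgeR adjusted p = 3.97e-05). Top2a, the topoisomerase that untangles sister chromatids, was at 65.0, 73.4, 63.8 and 64.6 CPM in the knockdown, against 72.9, 80.8, 62.7 and 68.8 CPM in the control and was not called (-0.10, interval -0.23 to 0.03).

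Per transcript length, in the authors' FPKM, levels spanned a wide range. Cdc20 led at 289 ± 19.4 FPKM in the knockdown and 340 ± 11.9 FPKM in the control (SD, n = 4 each). Next came Cks1b at 191 ± 5.14 and 191 ± 5.98 FPKM, Pttg1 at 156 ± 5.97 and 156 ± 5.86 FPKM, and Birc5 at 133 ± 4.81 and 140 ± 3.23 FPKM, all 3 without a call. The lowest were Cenpe at 2.94 ± 0.29 and 3.11 ± 0.29 FPKM, Ect2 at 2.17 ± 0.22 and 2.15 ± 0.28 FPKM, and Ttk at 2.11 ± 0.30 and 2.14 ± 0.27 FPKM, which lie within the SD of each other for Ect2 and Ttk. The median level of the 49 genes was 18.7 FPKM in the knockdown and 24.9 FPKM in the control. Both of these are the values of Cenpa, which had one of the deeper falls (-0.36 on the log2 scale). Their gap is therefore not the typical change, as the median log2 fold change of the 49 was -0.17. Genes called lower were found at both ends of the range, from Cdc20 to Cenpf at 3.55 ± 0.28 FPKM in the knockdown and 4.48 ± 0.42 FPKM in the control.

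**Figure D4:**
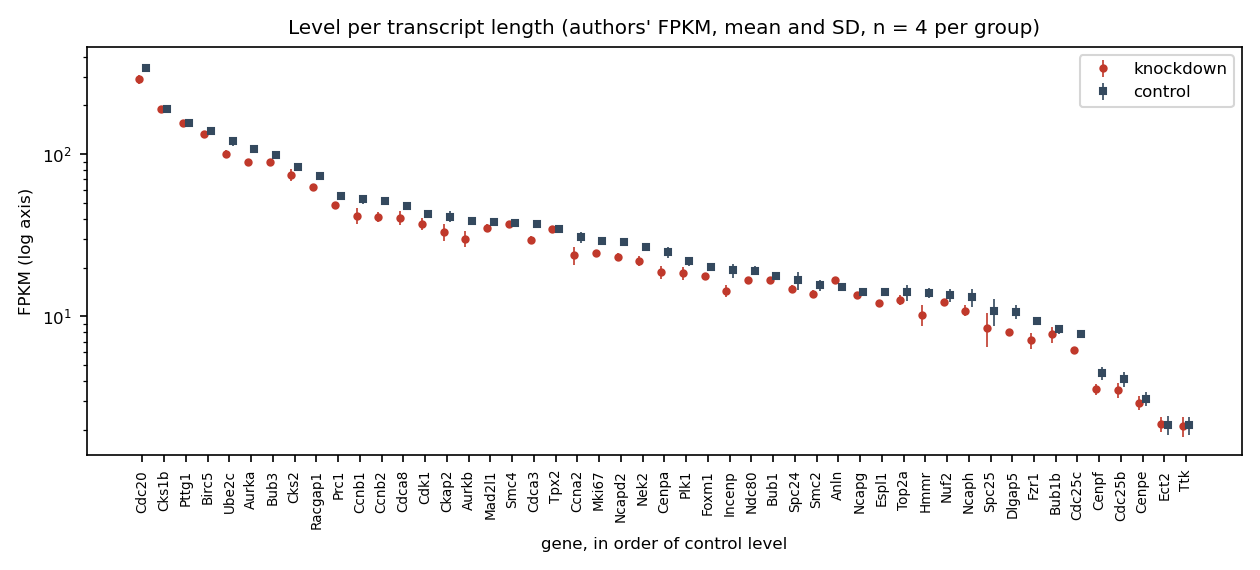
Mean ± SD of the authors' FPKM (log axis) for the 49 genes in order of control level, with knockdown (red circles) left of control (dark squares), 4 libraries each. Levels run from 340 FPKM in the control for Cdc20 to 2.14 FPKM in the control for Ttk.

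Promoters were read because so many of these genes moved together. RefSeq windows from 250 bases before to 50 bases after the start (GRCm38.p6) were found for 40 of the 49 genes, using the first listed window of each gene. The motif CCAAT was searched on both strands (ATTGG on the other), TTTGAA likewise (TTCAAA on the other), and the variants TTCGAA and TTTAAA, which read the same on both strands; a match to any of these can share at most 1 base with a CCAAT match. CCAAT was present in 33 of 40 windows (82.5%), against 39.6% of the 9289 windows of all tested genes and 37.9% of all 27025 windows. TTTGAA was present in 28 of 40 (70.0%), against 11.9% and 18.1%. Both were present in 26 of 40 (65.0%), against 5.20% and 7.12%. TTCGAA was in 4 windows and TTTAAA in 8. Among the 21 windows of genes that fell, 20 held CCAAT and 17 held TTTGAA, and among the 18 windows of genes not called, 13 held CCAAT and 10 held TTTGAA. These matches describe letters in the windows only.

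The 150 bases just before the start are printed for 4 genes that fell with both motifs there, for 2 genes with both motifs that were not called, and for Anln, which was called higher. They run 5′ to 3′ on the strand of the gene, and capitals mark every match to any of the 4 motifs on either strand.
Cdk1: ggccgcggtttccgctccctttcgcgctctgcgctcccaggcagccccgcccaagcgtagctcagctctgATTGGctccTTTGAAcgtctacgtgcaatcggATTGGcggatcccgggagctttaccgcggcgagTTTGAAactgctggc
Cdc20: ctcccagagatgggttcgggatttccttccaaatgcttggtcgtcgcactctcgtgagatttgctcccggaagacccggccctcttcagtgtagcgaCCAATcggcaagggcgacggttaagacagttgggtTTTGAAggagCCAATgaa
Ube2c: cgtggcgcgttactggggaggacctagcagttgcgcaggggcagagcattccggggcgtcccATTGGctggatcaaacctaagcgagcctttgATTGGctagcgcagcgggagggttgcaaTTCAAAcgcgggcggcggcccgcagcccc
Espl1: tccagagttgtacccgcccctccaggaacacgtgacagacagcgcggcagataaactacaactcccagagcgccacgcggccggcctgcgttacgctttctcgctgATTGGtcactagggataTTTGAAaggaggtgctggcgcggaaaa
Cks1b: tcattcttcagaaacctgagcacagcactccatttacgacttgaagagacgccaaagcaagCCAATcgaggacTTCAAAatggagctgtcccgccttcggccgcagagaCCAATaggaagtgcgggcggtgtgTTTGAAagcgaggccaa
Bub3: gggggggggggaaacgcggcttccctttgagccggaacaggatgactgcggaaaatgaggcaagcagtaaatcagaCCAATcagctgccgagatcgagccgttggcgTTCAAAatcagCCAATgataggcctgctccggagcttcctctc
Anln: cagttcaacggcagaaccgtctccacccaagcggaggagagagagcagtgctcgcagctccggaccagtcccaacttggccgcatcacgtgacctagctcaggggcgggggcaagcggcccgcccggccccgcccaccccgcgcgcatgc

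The stretches lie at chr10:69352913-69353062 on the minus strand for Cdk1, chr4:118437344-118437493 on the minus strand for Cdc20, chr2:164769779-164769928 on the plus strand for Ube2c, and chr15:102296143-102296292 on the plus strand for Espl1. Those of the other genes lie at chr3:89418292-89418441 on the minus strand for Cks1b, chr7:131560220-131560369 on the plus strand for Bub3, and chr9:22389207-22389356 on the minus strand for Anln. In Cdc20 a CCAAT begins 53 bases before the start, TTTGAA 18 bases before it and a second CCAAT 8 bases before it. Cks1b, which was not called, holds the same 2 motifs with CCAAT at 89 and 41 bases and TTTGAA at 17 bases before its start. Anln has no match in the printed stretch, and its TTTGAA matches begin 21 and 28 bases after the start. The arrangement is thus found in genes that fell and in genes that were not called.

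Further genes of mitosis were listed by role. Of 16 core APC/C subunits and direct regulators, 3 rose and 1 fell, where 11.1% of all tested genes were called higher and 9.15% lower. The fall was in the APC/C inhibitor Fbxo5 (-0.18, SE 0.05) and not in a core subunit. Without knockdown replicate 4 none of the 16 fell (6.87% of all tested genes). Without knockdown replicate 2 there were 2 falls (8.44%). With library totals alone 4 fell and 2 rose, where 16.9% of all tested genes were called lower and 6.62% higher. The scaffold subunit Anapc5 rose to 485 ± 11.7 CPM, against 415 ± 11.5 CPM in the control (SD, n = 4 each, 0.22 on the log2 scale with SE 0.03 and edgeR adjusted p = 2.27e-07), and the chain-elongating enzyme Ube2s rose by 0.21 (SE 0.04), in contrast to the estimate of -0.20 for Ube2c, its chain-starting partner. Of 26 further kinetochore subunits 3 fell and 1 rose (0 rose without control replicate 2), with the MIS12 complex subunit Nsl1 and the SKA complex subunit Ska3 each at -0.25 (SE 0.06 each) and with some counts not whole. Among 15 cohesin genes and cohesion regulators 5 fell and 1 rose. The smallest adjusted p belonged to the cohesin ring subunit Rad21 (-0.20, SE 0.04, edgeR adjusted p = 8.58e-05) and the centromeric cohesin protector Sgo2a (-0.36, SE 0.07, edgeR adjusted p = 0.000166). The protector Sgo1 (-0.34, SE 0.07), the cohesin acetyltransferase Esco2 (-0.33, SE 0.07) and the ring subunit Smc3 (-0.17, SE 0.06) also fell, while the ring-associated Stag2 rose (0.37, SE 0.09). With transcript length and GC offsets 3 of the list fell, and 2 rose without control replicate 2.

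Of 16 genes listed under spindle and centrosome proteins 5 fell and 1 rose. The rise was in Kntc1 (0.32, SE 0.06), which encodes a kinetochore checkpoint protein. Cep55, an abscission factor, was among the falls (-0.13, SE 0.04). Neither speaks for the spindle proteins of the list. The minus-end motor Kifc1 fell by 0.42 on the log2 scale (SE 0.05, edgeR adjusted p = 1.34e-07), at 62.4 ± 5.25 CPM in the knockdown and 83.5 ± 4.49 CPM in the control (SD, n = 4 each) from counts that were not whole, and Ckap2l, a relative of Ckap2, fell by 0.39 (SE 0.06). Of 18 tested genes for mitotic entry and its phosphatases, 2 fell and 3 rose, with Cdc25a at -0.33 (SE 0.07) and the stress-responsive kinase Plk3 at 0.16 (SE 0.03). There were 1 fall and 1 rise without knockdown replicate 3, knockdown replicate 4 or control replicate 1, and 1 fell and 2 rose without knockdown replicate 2, without control replicate 2 or with DESeq2. Of 11 genes listed under cytokinesis and abscission, 1 fell (Ccnf, -0.29, SE 0.10) and 1 rose (Chmp4b, 0.18, SE 0.04). Ccnf encodes cyclin F, so its fall does not speak for the cytokinesis factors of the list. The fall of Ccnf was not called without knockdown replicate 1, 3 or 4, without control replicate 1, 2 or 3, with DESeq2 or with transcript length and GC offsets. Among 12 MuvB, B-Myb, E2F and pocket protein genes the MuvB subunit Lin9 fell by 0.21 (SE 0.07) and the E2F partner Tfdp1 rose by 0.26 (SE 0.03). None of the 12 fell without knockdown replicate 4 or control replicate 2, and 3 fell without knockdown replicate 2. The medians of these lists lay between -0.05 and 0.01, beside -0.0033 for all tested genes, and between -0.11 and -0.04 with library totals alone, beside -0.06. The share called lower was 6.25% for core APC/C, 8.33% for the list with MuvB and 9.09% for cytokinesis and abscission. It was 11.1% for mitotic entry and 11.5% for further kinetochore subunits. These shares lie near or below the 9.15% of all tested genes. The cohesin list (33.3%) and the spindle and centrosome list (31.25%) lie above it. The rises in these lists stand beside 11.1% of all tested genes called higher.

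Replication genes, which are expressed mainly in the preceding S phase, were called lower in 7 of 40 cases (17.5%) and higher in 1, beside the background of 9.15% and 11.1%. Their median log2 fold change was -0.03, beside -0.17 for the 49 mitotic genes. The other lists of mitotic genes had medians between -0.05 and 0.01, so the lower median was that of the 49 and not of all mitotic genes listed. The largest fall among them was in the GINS helicase subunit Gins4 (-0.27, SE 0.06, edgeR adjusted p = 0.0017), and the clamp loader subunit Rfc5 rose by 0.16 (SE 0.04, edgeR adjusted p = 0.00545). Without knockdown replicate 4, 2 of the 40 fell, where 6.87% of all tested genes did. Likewise 2 fell without control replicate 2 (6.97% of all tested genes) and 3 without control replicate 3 (7.97%), whereas 9 fell and 2 rose without knockdown replicate 1 (8.18% called lower). With library totals alone 13 fell (16.9%), and with transcript length and GC offsets 4 fell and 2 rose (8.46% called lower). The median of the replication genes in knockdown replicates 1 to 4 was 0.00025, -0.02, -0.03 and -0.09 relative to the control mean. The difference between the replication genes and the 49 mitotic genes was not tested.

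**Figure D5:**
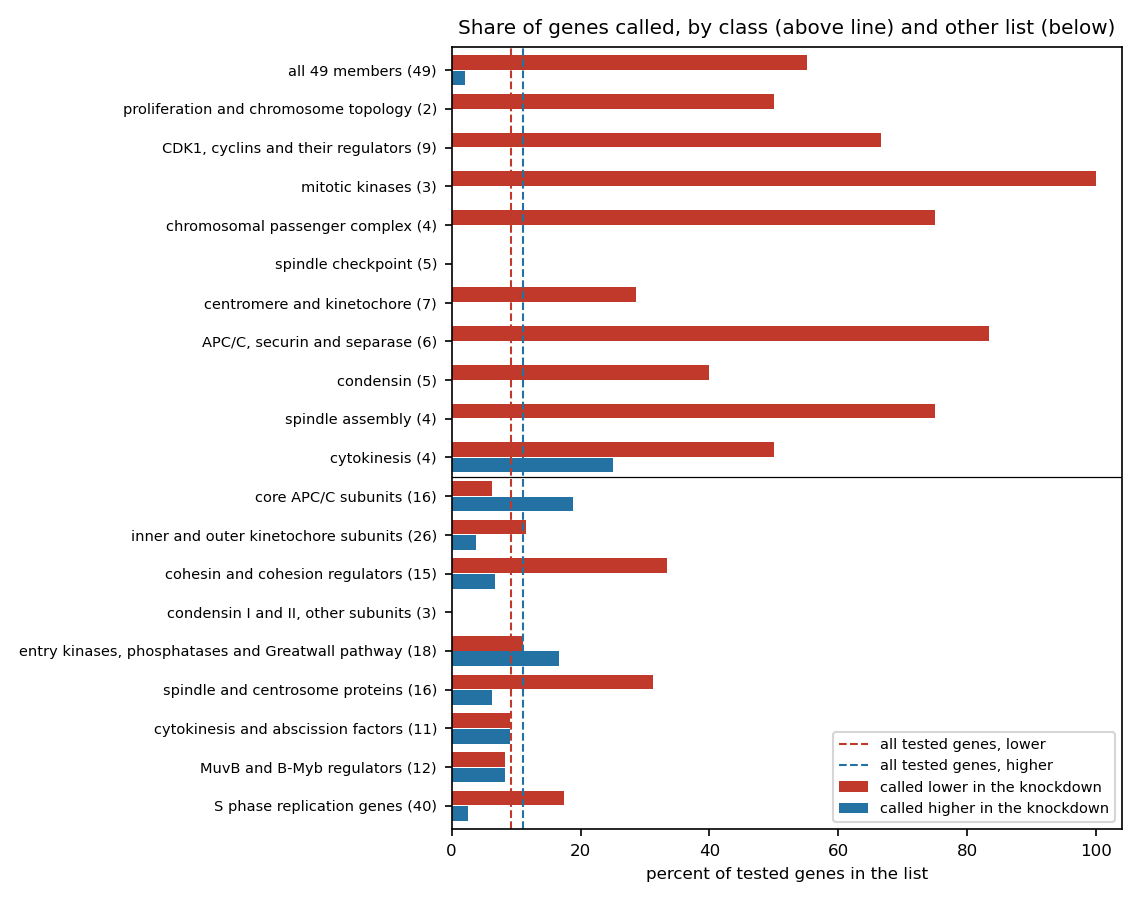
Percent of tested genes called lower (red) and higher (blue) in the knockdown for the 49 genes, their 10 classes (above the line) and the other lists (below), with the number tested in brackets. Dashed lines mark the shares of all tested genes, 9.15% lower and 11.1% higher; the 49 genes reach 55.1% lower.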

How the data were processed

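Poly(A)-selected RNA was sequenced from 8 libraries of TCMK-1 cells. Per the file headers, the authors deposited gene-level expected counts, some of them fractional, and FPKM. The submitters' processing notes name no step for each tool; they list StringTie 1.3.1, HISAT2 2.4, edgeR, RSEM, Bowtie2 2.2.8, DESeq2 and fastp 0.18.0, and the build GRCm38.p6. The annotation release and strandedness were not given in the sources used here. Expected counts were rounded, then tested under R 4.3.3 by edgeR 4.0.16 (TMM factors, default expression filter, robust quasi-likelihood F-test on group, two-sided), with Benjamini-Hochberg adjustment over 11576 tested genes at 0.05. Standard errors came from the fold change and F statistic, and intervals cover 95%. Counts were called not whole beyond a tolerance of 1e-09, which held in 5 of the 49 genes. A count of 3 equals 0.187 to 0.259 CPM per library.

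The members, lists and tests were chosen with earlier results of these data known. Full values were given for the 3 members of each class with the smallest adjusted p, members called higher and paralogue pairs, and for up to 2 called genes of each other list; others were named after their values were seen. Replicates differed by more than sampling noise (chi-square per degree of freedom 1.92 to 3.81). Alternatives were other size factors, filters and thresholds, DESeq2 1.42.0, limma 3.58.1 with voom or on log2(FPKM + 0.5) or log2(FPKM + 0.1), a replicate term and each library left out. Offsets for transcript length and GC content (longest GENCODE M21 transcript, 11178 genes) were added after seeing the data. The procedure was run on simulated counts that shared a common dispersion. Passing was judged only on unchanged genes and on a change larger than any member showed. The run therefore does not speak for calls on smaller changes. Protein sequences were not used here.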

Additional observations from a re-analysis of the deposited data

Results flagged for a closer look

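Of 98 groups of 4 libraries examined (49 genes in 2 groups), 4 held a library far from the other 3, by a test of the gap that flags about 1 in 20 groups by chance. Cdc20 was at 477 CPM in knockdown replicate 4, where the other knockdown libraries lay between 537 and 548 CPM. Ube2c was at 88.5 CPM in the same library, where the others lay between 97.0 and 98.4 CPM. Top2a was at 73.4 CPM in knockdown replicate 2, against 63.8 to 65.0 CPM in the other knockdown libraries. Ccna2 was at 93.8 CPM in control replicate 2, where the other controls lay between 81.7 and 82.8 CPM.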

How the results depend on the processing

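Across 19 alternatives, the 27 genes that fell stayed below 0 in every one, and 19 of the 28 called genes kept their call in all of them. Of the 49 genes 19 to 31 were called lower, and the median log2 fold change of the 49 was -0.23 to -0.14. The share of all tested genes called lower moved as well, from 5.01% at a threshold of 0.01 to 16.9% with library totals alone. The counts of 19 and 31 came from those same settings. Leaving out each library in turn gave 22 to 26 genes lower, 0 to 1 higher and a median of -0.19 to -0.14, and 20 of the 28 kept their call in all 8 such fits. The count called higher was 0 at a threshold of 0.01, as Anln had an edgeR adjusted p of 0.0256. It was also 0 with library totals alone, on log2(FPKM + 0.5) and on log2(FPKM + 0.1). There the median of all tested genes was -0.06, -0.05 and -0.06, beside -0.0033 in the main fit. The part of that shift in the lost call was not tested.

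Same-numbered libraries correlated between -0.04 and 0.08 in their deviations, and 3 of 4 knockdown libraries were closest to their own number. The labels give no pairing, and these values do not settle whether the numbers mark pairs. The main fit held no replicate term. With the replicate block 28 genes fell and 1 rose, where 10.7% of all tested genes were called lower and 12.3% higher. Genes that changed sign were not called in any such fit. With library totals alone these were Cks1b (-0.0058), Ttk (-0.025), Pttg1 (-0.00010), Ncapg (-0.044) and Smc4 (-0.0042). On log2(FPKM + 0.5) they were Cks1b (-0.0052), Ttk (-0.014), Ncapg (-0.057) and Smc4 (-0.0054), and on log2(FPKM + 0.1) Cks1b (-0.0052), Ttk (-0.016), Ncapg (-0.059) and Smc4 (-0.0055). With length and GC offsets Birc5 was at 4.5e-05. Over the fits without 1 library Ttk ranged from -0.049 to 0.097, Ncapg from -0.024 to 0.047, Cenpe from -0.081 to 0.037, Birc5 from -0.040 to 0.00083, Bub1b from -0.11 to 0.014, Ect2 from -0.0076 to 0.13 and Bub1 from -0.036 to 0.017. The cause was not tested. Precision differed between genes: the interval of Spc25 was -0.61 to 0.0037 and that of Ttk -0.25 to 0.32.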
